A study of Mus musculus with 39 samples.

Results

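The genes of the Wnt ligands, of their Frizzled and Lrp receptors and of the secreted Dkk and Sfrp inhibitors were taken from lists of Notch and RBPJ binding in the embryonic mouse cortex. A gene was a member when its symbol was Wnt, Fzd, Lrp5, Lrp6, Dkk1 to Dkk4 or Sfrp1 to Sfrp5, and 39 of 21938 protein-coding genes met this rule (19 Wnt, 10 Fzd, 2 Lrp, 4 Dkk and 4 Sfrp genes). A peak belonged to a member when the nearest start site of any transcript of a protein-coding gene was that member's, and 74 of 20809 nuclear consensus peaks did. The rule used no measured value.

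The lists came from Targeted DamID, in which a Dam methylase fused to a protein methylates GATC sites close to where the protein sits, after which fragments between methylated sites are amplified and read. Wild-type MF1 embryos were electroporated in utero at E13.5 with a plasmid that carried Dam alone or a Dam fusion, and the cortex was collected at E14.5. The Hes5 promoter drove the plasmid in radial glial cells (RGCs), the stem cells of the cortex, and the Tα1 promoter drove it in intermediate progenitor cells (IPCs), which arise from them. RBPJ was the human RBPJ1 in 3 RGC and 3 IPC samples. Notch was the mouse intracellular domain (NICD) in all 4 IPC samples and in 2 of the 4 RGC samples, and a mouse Notch without its extracellular part (NdECD) in the other 2. The Notch and RBPJ samples of a cell type shared its Dam-only controls, 5 for RGCs and 4 for IPCs. Each fusion was made from a plasmid beside the cell's own protein, and the cell type rested on the promoter alone. Peak lists hold no expression, so marker genes of RGCs and IPCs could not be examined.

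Wnt proteins are secreted, lipid-modified ligands that bind Frizzled receptors. With the co-receptors Lrp5 or Lrp6 they keep beta-catenin from being degraded, so that it reaches Tcf and Lef factors in the nucleus, and without them they act through planar polarity and calcium routes. Dkk proteins bind the Lrp co-receptors, and Sfrp proteins resemble the ligand-binding part of Frizzled and hold Wnts outside the cell. In the embryonic cortex Wnts from the cortical hem and from the ventricular zone act on progenitor growth, regional identity and blood vessel ingrowth. RBPJ is the DNA-binding partner through which the Notch intracellular domain reaches its target genes, and it can also sit on DNA without Notch.

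The letters below are shown because RBPJ is known to bind TTCCCA. They let the word be seen in the member consensus peaks that were called by the most lists or lay on a start site. The peaks of Dkk2, Fzd2 and Sfrp1 were called in 3 or 4 lists, and the others covered a start site. A window in a consensus peak need not lie in the peak of each list that called it. The Fzd2 window lay in the RGC RBPJ peak alone, and neither Sfrp1 window lay in an IPC RBPJ peak. Each line gives 60 bases of the forward strand of GRCm38, with TTCCCA or its reverse complement TGGGAA in capitals. The window was placed on the word outside exons that lay nearest to the middle of the peak, or on the window with the most words. The Dkk2 window was at chr3:132014924-132014983, in intergenic sequence 70.3 kb upstream of the start site. The Fzd10 window was at chr5:128600240-128600299, 0.574 kb upstream of the start site. The Fzd2 window was at chr11:102602335-102602394, 2.03 kb upstream. The Sfrp1 windows were at chr8:23409045-23409104, 2.43 kb upstream, and at chr8:23423253-23423312 in an intron, 11.8 kb downstream of the start site. The upstream one is labelled start site after its peak, which reaches the start site, and its bases do not. The window of Sfrp2 was at chr3:83769618-83769677, in an intron 2.79 kb downstream. Those of Wnt11 and Wnt7a were intronic as well, at chr7:98835859-98835918 and chr6:91410071-91410130, 0.758 and 1.26 kb downstream. The Wnt5b window was at chr6:119450300-119450359 and the Wnt7b window at chr15:85582036-85582095, 0.944 and 0.484 kb upstream of a start site inside the gene and within an intron of a longer transcript.
Dkk2: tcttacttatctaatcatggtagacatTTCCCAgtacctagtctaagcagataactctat
Fzd10: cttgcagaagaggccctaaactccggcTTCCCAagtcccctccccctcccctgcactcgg
Fzd2: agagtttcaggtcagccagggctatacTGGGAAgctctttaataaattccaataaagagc
Sfrp1, start site: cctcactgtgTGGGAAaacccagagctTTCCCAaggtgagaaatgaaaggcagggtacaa
Sfrp1, intron: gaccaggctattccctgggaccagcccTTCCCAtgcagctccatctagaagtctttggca
Sfrp2: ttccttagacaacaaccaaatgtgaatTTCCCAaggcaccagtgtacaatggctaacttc
Wnt11: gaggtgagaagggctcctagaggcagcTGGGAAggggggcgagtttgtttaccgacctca
Wnt5b: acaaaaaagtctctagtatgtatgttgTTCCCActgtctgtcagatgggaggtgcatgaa
Wnt7a: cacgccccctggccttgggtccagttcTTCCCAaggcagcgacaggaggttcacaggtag
Wnt7b: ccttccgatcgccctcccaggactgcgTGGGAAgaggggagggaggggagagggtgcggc

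The upstream Sfrp1 window held both orientations of the word, TGGGAA and then TTCCCA, with 11 bases between them. RBPJ and Notch can form paired complexes on 2 facing words set 15 to 19 bases apart, and this spacing was found in 0 of the 74 member peaks and in 0.356% of all consensus peaks. The peaks held 7 words (Sfrp1 upstream), 8 words (Sfrp1 intron and Wnt7a), 7 (Sfrp2 and Wnt5b), 4 (Fzd10), 3 (Dkk2, Fzd2 and Wnt7b) and 2 (Wnt11) over their whole length. The start-site peak of Fzd8 held 6 words, and its letters are not shown here. The start-site peak of Fzd6 held 0 words.

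In a window of 1 length, the central 1000 bp, TTCCCA occurred in 48 of 74 member peaks (64.9%, 95% Wilson interval 53.5% to 74.8%) and in 68.2% of all consensus peaks. Here and below these intervals cover counting error over peaks or genes only, since the lists pool their samples and hold no value of a single sample. The longer RBPJ word TTCCCAC was in 23.0% of member windows and in 23.8% of all. The words read by Tcf and Lef factors were CTTTGAT, in 13.51% of member windows and 17.6% of all, and CTTTGAA, in 18.9% and 23.5%. TAATTA, the core read by many homeobox factors, was in 27.0% and 28.8%. All words were searched on both strands, and each share of the member peaks lay near that of all peaks, with intervals that included it. By RefSeq (GRCm38.p6), 25 of the 39 members had a promoter sequence, and TTCCCA stood in 3 of these (12.0%; Wnt3, Wnt5b and Wnt9a) against 27.2% of 16522 genes. This share rests on few genes and has no interval, and a difference from all genes was not tested.

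Members had peaks more often than protein-coding genes in general. At least 1 consensus peak belonged to 27 of 39 members (69.2%, 53.6% to 81.4%), and the share over all protein-coding genes was 38.7%. In the RGC RBPJ list, 44 peaks lay at 20 members (51.3%, 36.2% to 66.1%), where 30.9% of all genes had a peak. The RGC Notch list had 14 peaks at 12 members (30.8%, 18.6% to 46.4%), against 11.5% of all genes. In IPCs, RBPJ had 29 peaks at 18 members (46.2%, 31.6% to 61.4%), against 16.1%, and Notch had 10 peaks at 8 members (20.5%, 10.8% to 35.5%), against 6.92%. In each of the 4 lists the interval of the members lay above the share of all genes. With no values per sample, no test between groups was possible, and how far the lists would vary between replicates cannot be given.

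**Figure D1:**
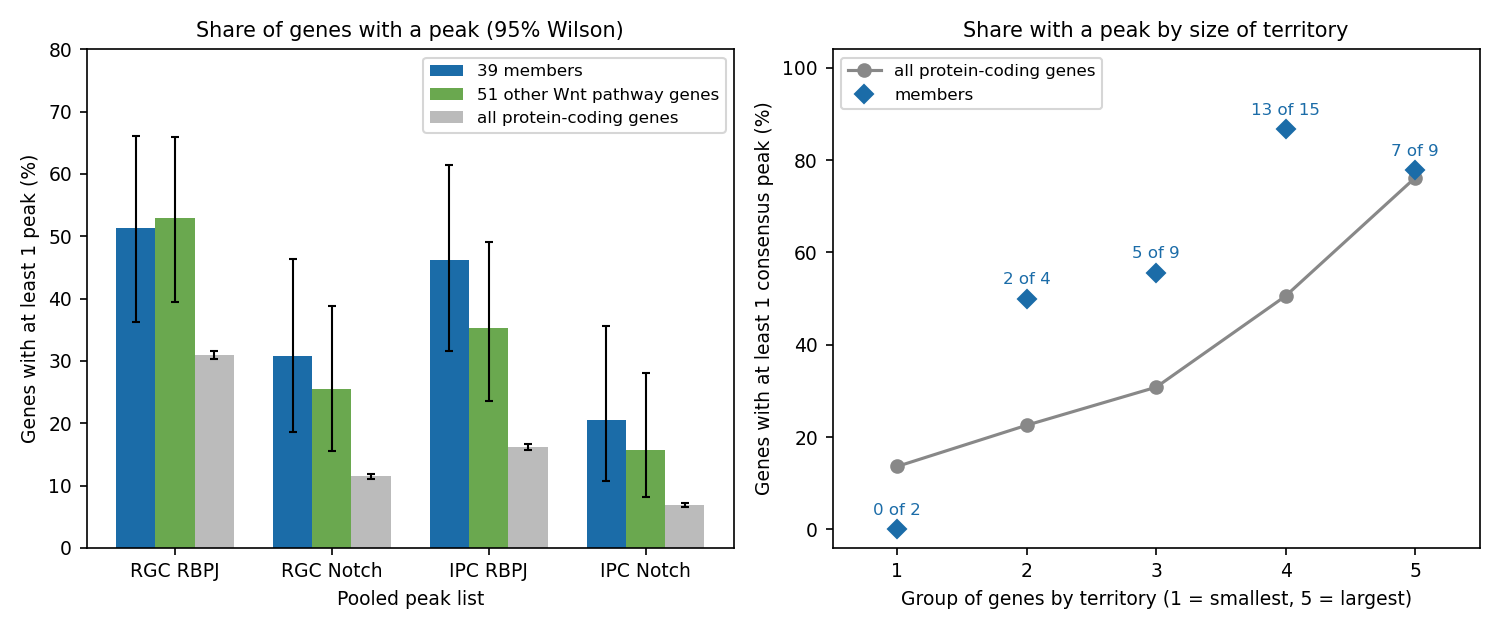
Left, the share of genes (%) with at least 1 peak in each pooled list, for the 39 members, 51 other Wnt pathway genes and all protein-coding genes, with 95% Wilson intervals as error bars. Right, the share of genes (%) with a consensus peak in 5 equal groups of all genes by territory, from the smallest (1) to the largest (5), as a line for all protein-coding genes and as points for the members. The points of groups 2 to 4 lie above the line, at 2 of 4, 5 of 9 and 13 of 15 members. That of group 5 lies close to the line, at 7 of 9 against 76.1%, and that of group 1 is at 0 of 2.

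The member genes lie in wider stretches of genome than most. The territory of a gene is the sequence nearer to its start sites than to those of any other protein-coding gene, and it sets how much sequence can yield a peak for it. Its median was 75.6 kb for members and 45.1 kb for all genes. Per Mb of territory there were 15.3 member peaks (exact Poisson interval 12.0 to 19.2) and 7.63 peaks over all genes. The value of all genes pools territories of up to 4426.3 kb, while the largest of a member was 686.1 kb. By role, the density was 19.2 per Mb for Wnt genes (12.8 to 27.5), 17.0 for Fzd genes (11.3 to 24.5), 15.3 for Lrp5 and Lrp6 (4.17 to 39.1), 14.8 for Sfrp genes (6.79 to 28.2) and 5.0 for Dkk genes (1.36 to 12.8). The last 3 intervals included the value of all genes. When all genes were put in 5 equal groups by territory, 13 of 15 members in group 4 had a peak, against 50.5% of all genes of that size. In group 5, with the largest territories, 7 of 9 did, against 76.1%. The 15 members of group 4 had 34 peaks, where the mean of all genes was 0.855 per gene. The 9 members of group 5 had 29 peaks, where that mean was 3.09 per gene.

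How the peaks fell over the members is shown by counting each consensus peak in the lists that called it.

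**Figure D2:**
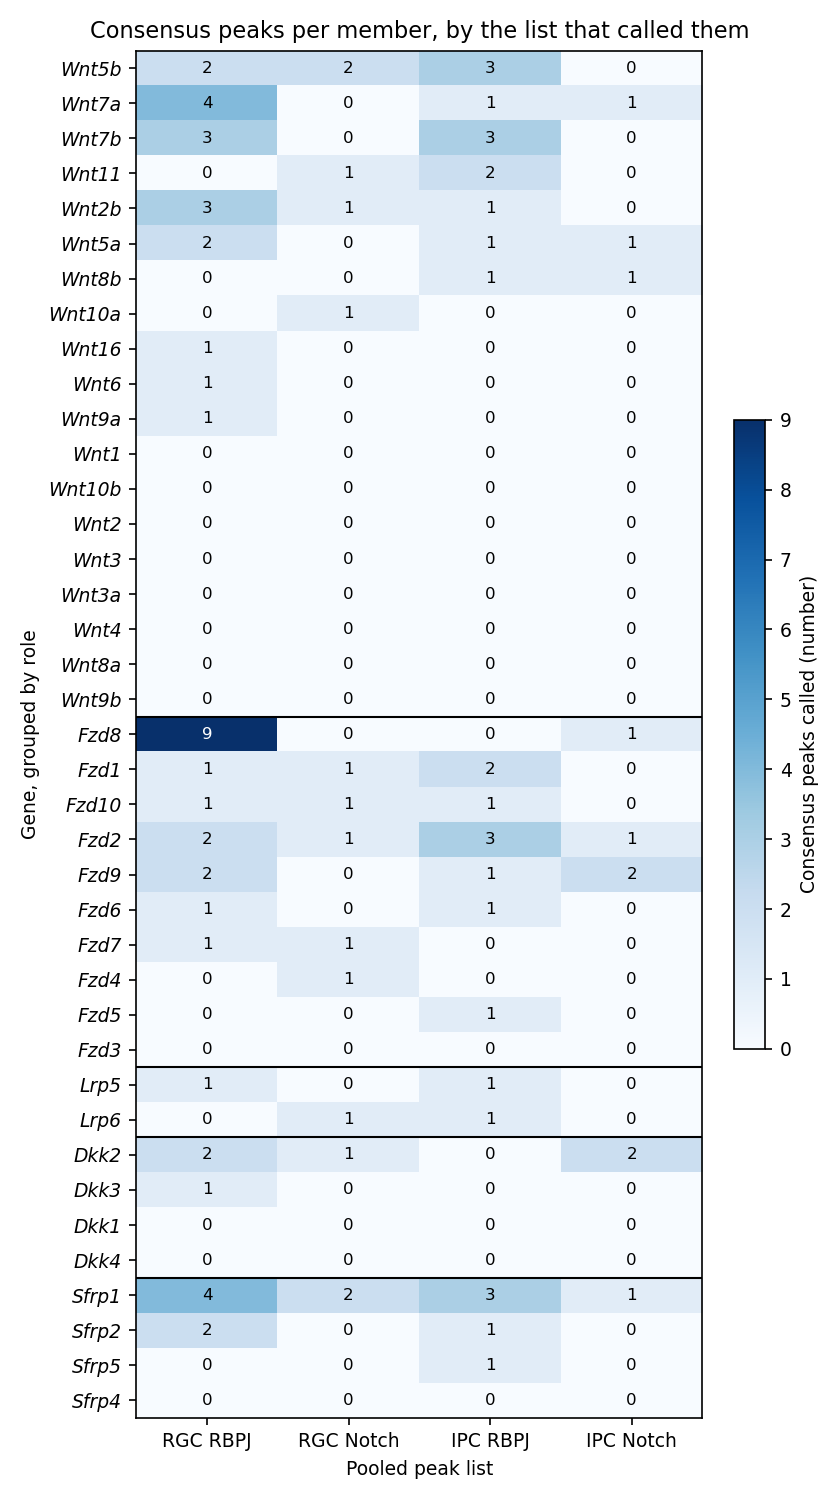
Number of consensus peaks at each of the 39 members (rows, grouped by role and separated by lines) that each pooled list called (columns), with the number printed in each cell and shaded from 0 to 9. Fzd8 has 9 in the RGC RBPJ list, Fzd2 and Sfrp1 are the members with a peak in all 4 lists, and 12 rows hold 0 throughout.

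Among the ligands, 11 of 19 genes (57.9%, 36.3% to 76.9%) had a total of 29 peaks. This interval included the 38.7% of all protein-coding genes with a peak. Wnt5b, which signals mainly through beta-catenin-independent routes, had 6, the largest number of any ligand. Its broadest peak, chr6:119447854-119453255, was called for RBPJ in both cell types and covered the start site of a shorter transcript inside the gene, not the 5′ end of the gene. Of the other Wnt5b peaks, 2 were called by RGC Notch (338 bp long at 0.647 kb upstream of a start site, and 4137 bp long in an intron 29.1 kb from one), 2 by IPC RBPJ and 1 by RGC RBPJ. No Wnt5b peak was shared by Notch and RBPJ.

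Wnt7a and Wnt7b, made by cortical progenitors and needed for brain vessels to grow in, had 4 peaks each and were both called for RBPJ at their start sites in both cell types. At Wnt7a the RGC RBPJ peak ran from 1.19 kb upstream to 3.67 kb downstream of the start site, and the IPC RBPJ peak from 0.236 to 3.06 kb downstream (consensus chr6:91407694-91412548). A second shared Wnt7a peak, chr6:91345713-91351440, lay beyond the 3′ end of the gene, 13.6 kb from a start site, and was in the RGC RBPJ and IPC Notch lists. The other 2 Wnt7a peaks, chr6:91357575-91359996 and chr6:91402260-91406133, were in the RGC RBPJ list alone. No RGC Notch peak lay at either gene.

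At Wnt7b the start-site peak (chr15:85579948-85582579) covered 2576 bp in the RGC RBPJ list and 553 bp in the IPC RBPJ list. The 3 other Wnt7b peaks lay upstream. One at 50.6 kb (chr15:85633108-85635100) was called for RBPJ in both cell types, one at 65.8 kb (chr15:85648247-85649589) in IPCs alone, and one at 72.7 kb (chr15:85655206-85658883) in RGCs alone.

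Wnt11, another ligand of the beta-catenin-independent routes, had an RGC Notch peak over its start site (chr7:98834263-98836474) and 2 IPC RBPJ peaks at 7.52 and 31.5 kb, and 0 RGC RBPJ peaks. Wnt2b, a ligand of the cortical hem, had 3 peaks at 4.63, 30.7 and 35.1 kb upstream, all called by RGC RBPJ, with RGC Notch on the middle peak and IPC RBPJ on the farthest. Wnt5a had 3 downstream of its start sites, at 2.67 kb (IPC RBPJ), 24.1 kb (RGC RBPJ and IPC Notch) and 87.0 kb (RGC RBPJ). Wnt8b, also a hem ligand, was the ligand with peaks in IPC lists alone, 1 for each protein.

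Wnt6 and Wnt9a had 1 RGC RBPJ peak each in an intron, 0.580 and 0.760 kb from a start site. The single Wnt16 peak, also RGC RBPJ, lay 35.2 kb upstream inside Cped1, and was the only member peak within another protein-coding gene and not in the member. Wnt10a had 1 RGC Notch peak at 21.6 kb. No ligand peak was called in 3 or 4 lists.

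Of the receptors, 9 of 10 Fzd genes had a peak (90.0%, 59.6% to 98.2%), 28 in all, and Fzd3, known for axon guidance, had none. Fzd2 had the one member peak that all 4 lists called, at chr11:102601020-102605482. In this region the RGC RBPJ peak ran from 3.38 kb upstream to 1.09 kb downstream of the start site, and the IPC Notch peak from 1.45 kb upstream to 0.282 kb downstream. The RGC Notch peak (1288 bp) and the IPC RBPJ peak (1904 bp) ended 73 and 37 bp short of the start site. A second Fzd2 peak, chr11:102607118-102611427, was called for RBPJ in both cell types and overlapped the 3′ part of this short gene, and the last, chr11:102629324-102632290, was called by IPC RBPJ alone.

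**Figure D3:**
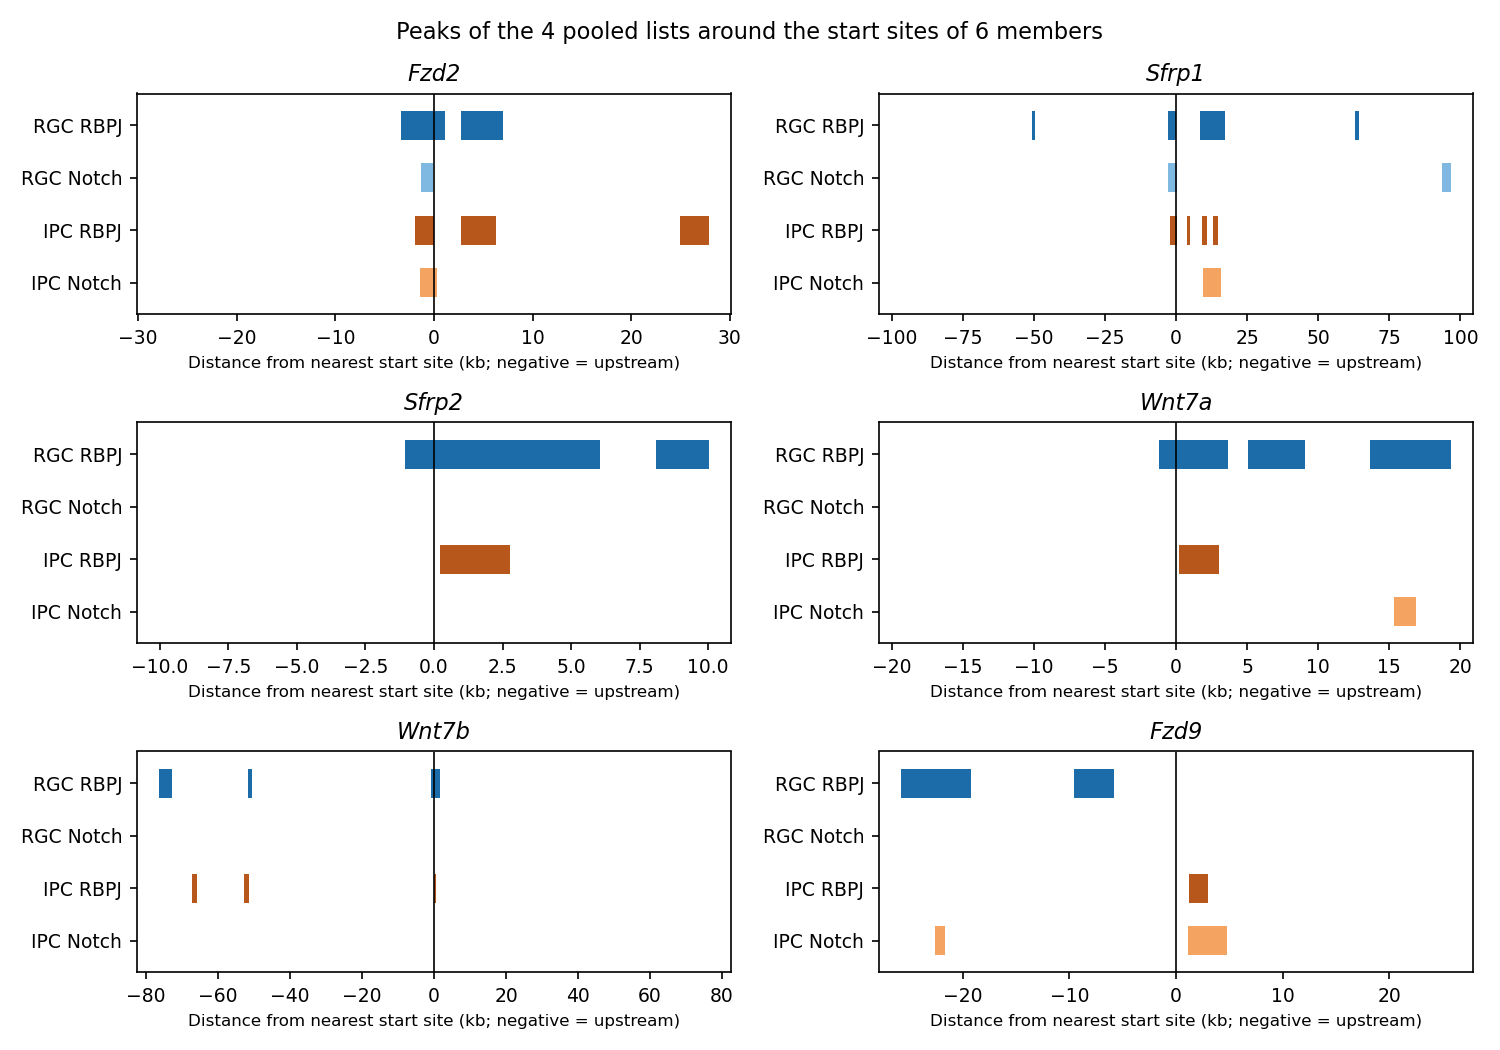
Extent of the peaks of each pooled list (bars, 1 row per list) around the start sites of Fzd2, Sfrp1, Sfrp2, Wnt7a, Wnt7b and Fzd9, as distance (kb) to the gene's closest start site, with upstream negative and the start site as a vertical line. The RGC RBPJ and IPC Notch bars cross the Fzd2 start site, and the RGC Notch and IPC RBPJ bars end just upstream of it. Bars of 3 lists cross the Sfrp1 start site, and the RBPJ bars of both cell types lie at or near the start sites of Sfrp2, Wnt7a and Wnt7b.

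Fzd9 had 3 peaks, of which the nearest overlapped its 3′ end 1.12 kb from the start site (chr5:135246485-135250110) and was called for both proteins in IPCs and in neither RGC list. Its other peaks were called by RGC RBPJ, 5.85 and 19.2 kb upstream, and the further of these also by IPC Notch. Fzd10, a receptor of the hem and the hippocampal side of the cortex, had 3 peaks in 3 lists with no overlap. RGC RBPJ covered the start site (chr5:128598812-128602174), IPC RBPJ ended just before that peak (chr5:128596769-128598809), and RGC Notch lay 45.8 kb downstream (chr5:128646660-128648309). Fzd6, a receptor of planar polarity, had an RGC RBPJ peak over its start site (chr15:39005394-39007456) and an IPC RBPJ peak 29.1 kb upstream.

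Fzd8 and Fzd1 stood apart by distance. Fzd8, a receptor of the early forebrain, had 9 peaks, all in the RGC RBPJ list, in a territory of 686.1 kb, the largest of any member. One of them, chr18:9208729-9219548, was 10820 bp long, the longest member peak, and covered the whole gene and its start site. The other 8 lay 139.9 to 633.4 kb upstream in intergenic sequence, and 1 of these, at 489.8 kb, was also called by IPC Notch. The 4 peaks of Fzd1 lay 20.5 kb upstream (chr5:4778515-4781670, RGC RBPJ) and 94.8, 130.1 and 270.8 kb downstream (chr5:4660332-4663190, RGC Notch, and chr5:4625537-4627894 and chr5:4485400-4487204, IPC RBPJ), and no 2 lists called the same site. Of the rest, Fzd7 had 1 RGC RBPJ and 1 RGC Notch peak, Fzd4 1 RGC Notch peak and Fzd5 1 IPC RBPJ peak.

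Both co-receptors had 2 peaks, each in 1 list. Lrp5 had an RGC RBPJ peak in an intron 4.14 kb from a start site (chr19:3679995-3682414) and an IPC RBPJ peak 8.25 kb upstream (chr19:3694811-3695997). Lrp6 had an IPC RBPJ peak 7.34 kb upstream (chr6:134574306-134576075) and an RGC Notch peak 23.0 kb from a start site beyond the 3′ end of the gene (chr6:134441277-134442040). Neither had an IPC Notch peak.

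Of the Dkk inhibitors, Dkk2 had 3 peaks and Dkk3 had 1, while Dkk1 and Dkk4 had none. The middle Dkk2 peak (chr3:132013576-132015971) was called by RGC RBPJ, RGC Notch and IPC Notch, 69.3 kb upstream. It was flanked by an IPC Notch peak at 65.5 kb (chr3:132018758-132019797) and an RGC RBPJ peak at 108.4 kb (chr3:131974314-131976846). The whole group lay in intergenic sequence and held no IPC RBPJ peak. Dkk3, a divergent member of the family, had 1 RGC RBPJ peak in an intron, 13.4 kb from the start site (chr7:112143279-112145672).

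Sfrp1, an inhibitor made by cortical progenitors, had 6 peaks and was, beside Fzd2, the other member found in all 4 lists (5.13% of members; 2.53% of all genes). Its start-site peak (chr8:23408631-23411747) was called by RGC RBPJ, RGC Notch and IPC RBPJ, and these 3 lists gave near-equal extents, from 2.87, 2.87 and 2.1 kb upstream to 0.161, 0.212 and 0.246 kb downstream. An intronic Sfrp1 peak 8.37 kb downstream (chr8:23419876-23428614) was 8739 bp long and was called for RBPJ in RGCs and for both proteins in IPCs, where the IPC RBPJ list held 2 separate peaks inside it. The 4 remaining peaks were each in 1 list, namely chr8:23415403-23416483 (IPC RBPJ), chr8:23360913-23361842 and chr8:23474459-23476018 (RGC RBPJ) and chr8:23504881-23508279 (RGC Notch, 93.4 kb downstream).

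Sfrp2 was called for RBPJ alone. Its start-site peak (chr3:83765790-83772913) was 7124 bp long in RGCs, from 1.06 kb upstream to 6.06 kb downstream, and 2542 bp in IPCs, wholly inside the RGC peak, and a second RGC RBPJ peak lay at 8.08 kb (chr3:83774932-83776886). Sfrp5 had 1 IPC RBPJ peak, 6.40 kb upstream (chr19:42208656-42210434).

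The 12 members with no peak were Wnt1, Wnt2, Wnt3, Wnt3a, Wnt4, Wnt8a, Wnt9b, Wnt10b, Fzd3, Dkk1, Dkk4 and Sfrp4. Their territories had a median of 37.6 kb, against 101.7 kb for the members with a peak. Wnt2, Wnt4 and Dkk1 were above the median of all members, at 84.8, 154.4 and 170.6 kb. For 3 of the 12 a consensus peak lay within 10 kb and was nearer to another gene. This was 3.52 kb away for Sfrp4 (counted for Epdr1), 7.30 kb for Fzd3 (Fbxo16) and 8.93 kb for Wnt1 (Ddn). For 3 others none lay within 100 kb. The nearest was 311.9 kb from Wnt4, a ligand known for kidney and gonad development, 224.8 kb from Wnt2 and 108.4 kb from Wnt8a, a ligand of the early embryo. For Dkk1, the Lrp antagonist needed for head formation, it was 87.7 kb away. For Wnt3 the nearest peak, called by RGC RBPJ, lay inside the Wnt3 gene itself, 33.5 kb from its start site. It was counted for Nsf, whose start site was nearer. For the neighbours Wnt3a and Wnt9a the nearest peak was the same, 16.9 kb from Wnt3a and 0.760 kb from Wnt9a.

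Most member peaks were in 1 list, as were most peaks in general. RGC RBPJ called 44 of the 74 (59.5%; 67.6% of all consensus peaks), RGC Notch 14 (18.9%; 17.7%), IPC RBPJ 28 (37.8%, 27.6% to 49.2%; 26.2%) and IPC Notch 10 (13.51%; 10.1%). Of these shares, that of IPC RBPJ had an interval above the share of all peaks. It did not among the 63 member peaks that hold a GATC, of which IPC RBPJ called 17 (27.0%, 17.6% to 39.03%), against 19.6% of all consensus peaks with a GATC. In 1 list there were 57 (77.0%; 82.9% of all), in 2 lists 13, in 3 lists 3 and in 4 lists 1. The 4 peaks in 3 or 4 lists were 5.41% of member peaks, against 3.88% of all.

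The proteins were compared within a cell type, where their lists share Dam-only controls. In RGCs both proteins called 4 member peaks (5.41%; 7.77% of all), at Dkk2, Fzd2, Sfrp1 and Wnt2b. Of the 14 RGC Notch peaks at members, 4 overlapped an RGC RBPJ peak (28.6%, 11.7% to 54.6%), against 44.0% of all RGC Notch peaks, and they were 9.09% of the 44 RGC RBPJ peaks. In IPCs both proteins called 3 (4.05%; 2.36% of all), at Fzd2, Fzd9 and Sfrp1, where 3 of 10 Notch peaks overlapped an RBPJ peak (30.0%, 10.8% to 60.3%; 22.5% of all). Each of these intervals included the share of all peaks. By gene, 8 members had peaks of both proteins in RGCs, which was 66.7% of the members with Notch and 40% of those with RBPJ, against 78.2% and 29.0% over all genes. In IPCs there were 6, which was 75.0% and 33.3%, against 59.2% and 25.4%.

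Between cell types, 15 member peaks (20.3%, 12.7% to 30.8%) were called in both, against 11.5% of all consensus peaks. Only IPC lists called 20 (27.0%, 18.2% to 38.1%; 22.4% of all), and only RGC lists called 39 (52.7%, 41.5% to 63.7%; 66.1% of all). Among peaks with a GATC, both cell types called 15 of 63 (23.8%, 14.99% to 35.6%; 12.7% of all such peaks), IPC lists alone 9 (14.3%, 7.70% to 24.97%; 15.05%) and RGC lists alone 39 (61.9%, 49.6% to 72.9%; 72.2%). The interval for both cell types lay above the share of all peaks either way. The share of RGC lists alone was lower than that of all peaks either way. Its interval lay below that share over the 74 member peaks and included it among the peaks with a GATC. For RBPJ, 10 of the 44 RGC peaks overlapped an IPC peak (22.7%, 12.8% to 37.0%), against 10.1% of all RGC RBPJ peaks. In the other direction 11 of 29 IPC peaks overlapped an RGC peak (37.9%, 22.7% to 56.0%; 26.6% of all). The genes were Fzd2, Sfrp1, Sfrp2, Wnt2b, Wnt5b, Wnt7a and Wnt7b. RBPJ peaks in both cell types, overlapping or not, were found at 13 members, in RGCs alone at 7 (Dkk2, Dkk3, Fzd7, Fzd8, Wnt16, Wnt6 and Wnt9a) and in IPCs alone at 5 (Fzd5, Lrp6, Sfrp5, Wnt11 and Wnt8b). The 13 were 65.0% of the members with RBPJ in RGCs and 72.2% of those in IPCs, against 35.8% and 68.5% over all genes, so the IPC share was near that of all genes. For Notch the number in both was 3 (Dkk2, Fzd2 and Sfrp1), with 9 in RGCs alone and 5 in IPCs alone. The 3 were 25% and 37.5% of the members in each list, against 31.3% and 51.9% over all genes. The RGC Notch list mixed NICD with NdECD and the IPC list did not, and the form of Notch and the cell type cannot be told apart there.

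A part of the IPC RBPJ calls lay where Dam has no site. Of the 74 member peaks, 11 (14.9%; 9.76% of all) held no GATC, and all 11 were called by IPC RBPJ alone. They lay at Fzd2, Fzd5, Fzd6, Lrp5, Lrp6, Sfrp5, Wnt11, Wnt7b and Wnt8b, and 2 at Wnt5b, and none was on a start site. In the whole IPC RBPJ list 33.6% of peaks held no GATC, against 1.32% in the RGC RBPJ list, 0.702% in RGC Notch and 5.61% in IPC Notch. Without such peaks, 18 peaks at 12 members remained in the IPC RBPJ list, where 11.2% of all genes had a peak with a GATC, and 25 members had a consensus peak, against 36.2% of all genes. Fzd5 and Sfrp5 then had none. The part of such peaks in the IPC RBPJ results was not tested beyond this count.

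The authors grouped consensus peaks into 8 clusters by binding intensity, and the intensities are not in the lists. The calls give a view of what each holds, since IPC RBPJ called 96.7% of all cluster 3 peaks, RGC RBPJ called 99.4% of those in cluster 8 and 97.6% of those in cluster 5, and RGC Notch called 70.8% of those in cluster 1. Cluster 1 had 9 member peaks (12.2%; 10.5% of all peaks), cluster 2 had 5 (6.76%; 4.76%), cluster 3 had 16 (21.6%; 16.3%) and cluster 4 had 6 (8.11%; 9.79%). Cluster 5 had 12 (16.2%; 22.5%), cluster 6 had 11 (14.9%; 10.8%), cluster 7 had 8 (10.8%; 11.0%) and cluster 8 had 7 (9.46%; 14.4%). The share of all peaks lay inside the interval of the members in each cluster. All 16 in cluster 3 were called by IPC RBPJ, at 13 genes, and 11 of them were the peaks without GATC (68.8%; 51.3% of all cluster 3 peaks). The peaks in cluster 2, in which calls of several lists meet, were those of Fzd2, Sfrp1 and Wnt2b. In cluster 6, IPC Notch called 7 of the 11 member peaks (63.6%), against 48.3% of all peaks in that cluster.

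**Figure D4:**
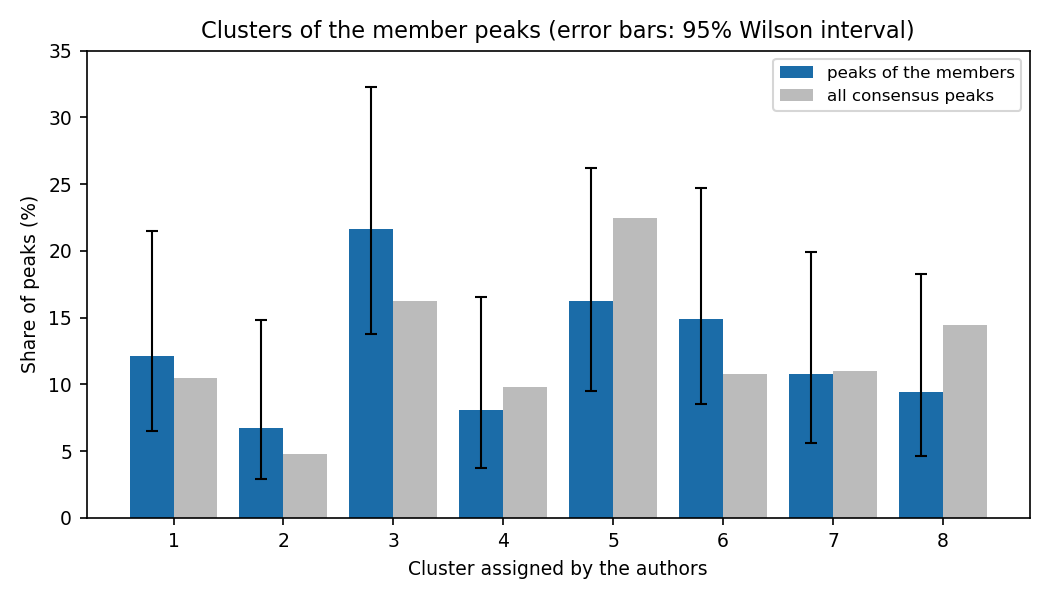
Share (%) of the 74 member peaks (with 95% Wilson intervals as error bars) and of all consensus peaks in each of the authors' 8 clusters. The members are highest in cluster 3 at 21.6% and all peaks in cluster 5 at 22.5%, and the error bar of the members includes the share of all peaks in each cluster.

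Member peaks were mostly outside genes. At the midpoint, 49 of 74 (66.2%, 54.9% to 76.0%) were intergenic, against 38.7% of all consensus peaks, and 16 (21.6%, 13.8% to 32.3%) were in an intron, against 47.3%. Exons held 3 (4.05%; 8.06% of all), and the 5 kb upstream of a start site 10 (13.51%; 16.6% of all). For exons and for the upstream 5 kb, the interval of the members included the share of all peaks. The median length of member genes was 16.7 kb and that of all genes 17.4 kb. The longest member gene was 120.5 kb and the longest of all genes 4434.9 kb. Whether gene length bears on these shares was not tested. The midpoint of 18 peaks was inside the member itself, of 1 inside another gene and of 55 in no protein-coding gene.

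The median distance from the peak edge to the start site was 16.4 kb, against 21.1 kb for all peaks, and differed by role, from 5.23 kb for ligands and 8.08 kb for Sfrp genes to 31.2 kb for Frizzled and 67.4 kb for Dkk genes. Over 100 kb lay 11 peaks (14.9%; 22.7% of all), 8 at Fzd8, 2 at Fzd1 and 1 at Dkk2. A start site was covered by 10 (13.51%; 16.6% of all). RGC RBPJ peaks covered 9 of these start sites, those of Fzd10, Fzd2, Fzd6, Fzd8, Sfrp1, Sfrp2, Wnt5b, Wnt7a and Wnt7b, and for Wnt11 the RGC Notch peak alone did. IPC RBPJ peaks themselves reached the start sites of Sfrp1 and Wnt7b, RGC Notch those of Sfrp1 and Wnt11, and IPC Notch that of Fzd2. By list, 9 of 44 RGC RBPJ peaks at members covered a start site, where 17.6% of all peaks of that list did. It was 2 of 14 for RGC Notch (20.2% of all), 2 of 29 for IPC RBPJ (14.2%) and 1 of 10 for IPC Notch (11.3%).

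**Figure D5:**
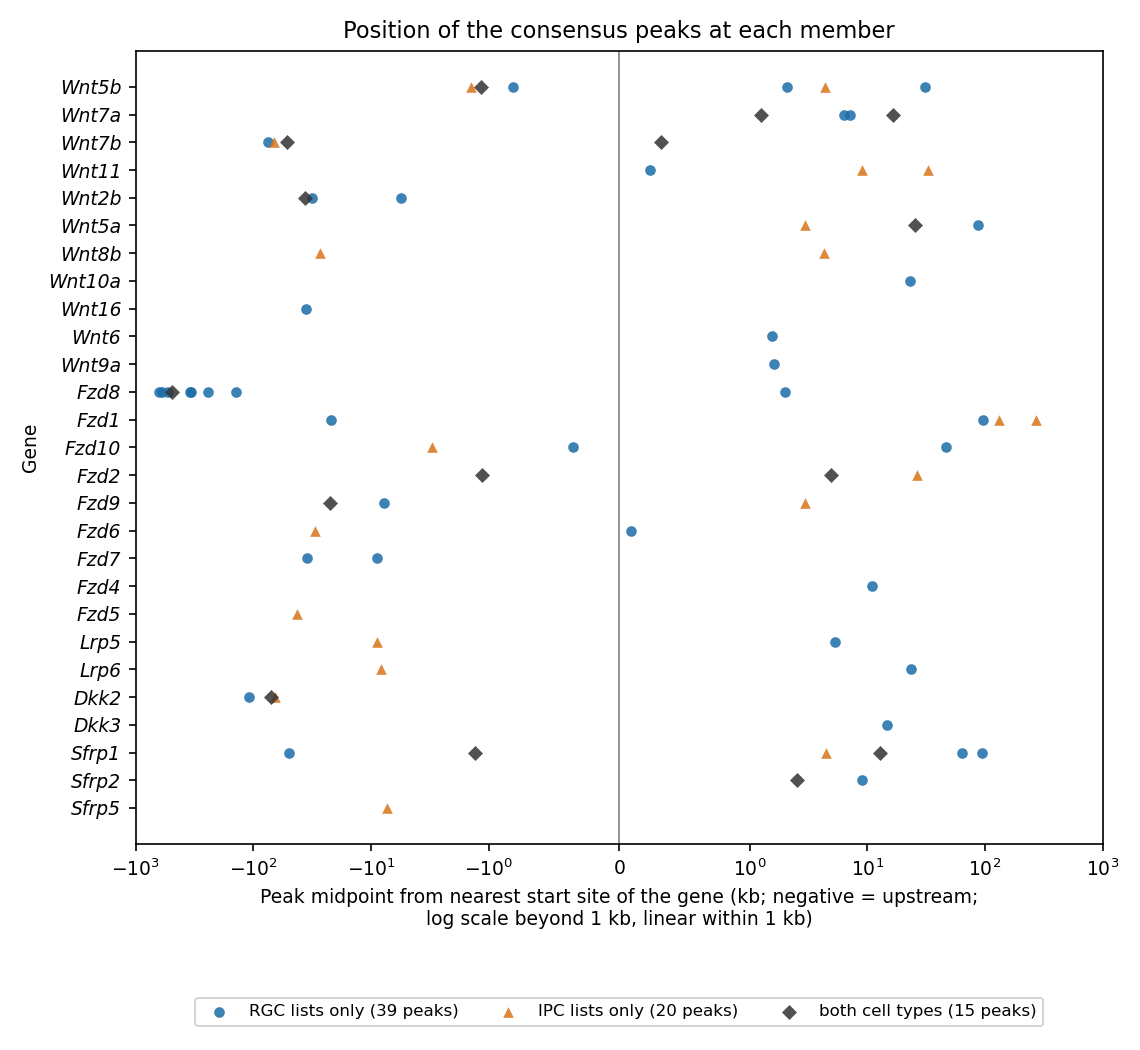
Distance in kb of the midpoint of each of the 74 consensus peaks to the closest start site of its gene, for the 27 members with a peak (upstream negative, log scale beyond 1 kb), with symbols for peaks called in RGC lists only (39), IPC lists only (20) and both cell types (15). The peaks of Fzd8 reach furthest, to 634.1 kb upstream, and those of Wnt6, Wnt9a, Lrp5, Sfrp2 and Sfrp5 lie within 10 kb.

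Other genes of the Wnt pathway had a consensus peak about as often as the members. Of 51 such genes listed by function, 36 (70.6%, 57.0% to 81.3%) had a total of 105 consensus peaks, against 38.7% of all genes with a peak. RGC RBPJ peaks were at 27 of them (52.9%; 30.9% of all genes), RGC Notch at 13 (25.5%; 11.5%), IPC RBPJ at 18 (35.3%; 16.1%) and IPC Notch at 8 (15.7%; 6.92%). The shares of the members were 51.3%, 30.8%, 46.2% and 20.5% in the same order. The share with a peak was 8 of 9 for nuclear factors, 9 of 11 for other receptors and planar polarity genes, 6 of 7 for receptors of the other secreted modulators, 7 of 10 for these modulators, 5 of 11 for cytoplasmic proteins and 1 of 3 for secretion. The largest numbers were 15 at Tcf7l2 and 9 at Tcf7l1, which encode Tcf factors, and 7 each at Apcdd1, a membrane inhibitor of Wnt signalling, and Celsr1, a planar polarity cadherin.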

How the data were processed

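Pooled Targeted DamID lists of 14 Notch and RBPJ samples, set against 9 Dam-only controls, were analysed. The authors trimmed reads, mapped them (mm10), ran Macs2 in broad mode on each fusion sample against each Dam-only sample, and kept peaks that every such pair shared. Used here were 4 of the peak lists they deposited and 1 list of consensus peaks with cluster numbers. In these the values are positions in bp, the deposited score columns are constant, and columns of single samples number 0, so they give no depth or replicate spread, no test was run and each value is a description.

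Peaks on 21 nuclear chromosomes were assigned to the nearest start site of any transcript of a protein-coding gene (GENCODE M21, GRCm38), from the peak edge, with ties settled by the midpoint. First exons of 91 of 91 member transcripts matched the GRCm38.p6 sequence. Positions count from 1, and overlap was counted from 1 bp. Positions were printed for the 3 members of each role with the most peaks, for peaks in 3 or 4 lists and for peaks on start sites, and the 3 most peak-rich other pathway genes were named (2 tied for the last place). Members and lists were chosen with earlier results of these data known. The assignment was tested on simulated peaks. Software was scipy 1.17.1, pandas 2.3.3 and numpy 2.4.6, with matplotlib 3.10.9, in Python 3.11.15.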

Additional observations from a re-analysis of the deposited data

How the results depend on the processing

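Of 115 values recomputed under alternatives for 33 results, 102 stayed within 1.5 times (counts) or within the interval (shares and densities). Letting the start sites of all annotated genes compete gave 42 consensus peaks at 23 members in place of 74 at 27. RGC RBPJ then had 23 peaks, RGC Notch 9 at 7 members and IPC Notch 5 at 5, since peaks nearer to a gene that codes for no protein no longer counted. The share of all genes with a peak under this assignment is not given. Whether members still had peaks more often than all genes was thus not tested there. With peaks of at least 1000 bp the IPC Notch list had 6 peaks. With peaks that hold a GATC, an alternative chosen after seeing the data, the IPC RBPJ list had 18, IPC RBPJ called 27.0% of member consensus peaks and IPC lists alone called 14.3%. Any overlap in place of the midpoint put 17.6% of member peaks on an exon, in place of 4.05%. TTCCCA was in 41.9% of the central 500 bp, and TTCCCAC in 23.0% of the central 1000 bp. Distance from the midpoint, 1 start site per gene, peaks within 100 kb, ties counted for each gene and an overlap of 50% left every result they were applied to within these bounds.

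No paired analysis was possible because the lists pool all samples of a condition. For the same reason no replicate was left out. Pooled lists hold only sites found in every pair of samples, so a member without a peak is one to which no call was assigned. The longest list, of 14097 RGC RBPJ peaks, and the shortest, of 2157 IPC Notch peaks, differ in how many calls they allow.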
